A study of Homo sapiens with 2 samples.

Results

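Open chromatin sites that lie away from protein-coding genes and were found in both of 2 unrelated human cell lines were examined. They were the 18357 J76 peaks on chromosomes 1 to 22 and X that overlapped a 293T peak by at least 1 bp and had their summit over 1 kb and at most 500 kb from the nearest end of a protein-coding gene. They were chosen by measured values, namely the presence of a peak in each list and the place of the J76 summit. They made up 31.3% of the 58730 J76 peaks on these chromosomes and 59.8% of the 30696 J76 peaks shared with 293T. J76 is labelled as an acute T-lymphoblastic leukemia line, and is known as a Jurkat derivative without T cell receptor alpha and beta chains. 293T, which the sample label writes T293, comes from human embryonic kidney and carries the SV40 large T antigen. Each line gave 1 ATAC-seq library (assay for transposase-accessible chromatin with sequencing) from 50000 growing cells cut by a Tn5 transposase purified by the submitters, and 1 peak list. With no replicates, differences between the lines or between kinds of peaks are descriptions without p-values. Intervals in parentheses are 95% Wilson intervals over peaks and cover counting error only.

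Tn5 inserts sequencing adapters where DNA is free of nucleosomes, so a peak marks a stretch of accessible chromatin. Away from protein-coding genes such stretches are known to include enhancers, which act on promoters at a distance and are often used in few cell types, insulators bound by CTCF, which are mostly open in every cell type, and promoters of transfer RNA, small nuclear RNA and long noncoding RNA (lncRNA) genes. Alternative promoters inside long protein-coding genes are also far from the gene's outer ends. Peak overlap shows that a site was called open in both lines, and does not tell these kinds apart.

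The labels were checked with marker genes, read as a peak within 1 kb of either gene end. Of 8 T cell markers, 7 had a peak in J76 only, among them CD3E, CD2 and LCK, and PTPRC had one in both lines. Of 8 markers chosen for 293T, 6 had a peak in 293T only, among them KRT8, KRT18 and LHX1. YAP1 had one in both, and PAX2, a kidney regulator, went the other way with a peak in J76 only. Among markers of B cells, myeloid cells, liver and red cells, MS4A1, CD14, LYZ, ALB and HBB had no peak in either line. Neither list records reads, so sequencing depth is unknown for both lines and a site without a peak was not shown to be closed.

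Sequence was read where a shared distal peak covered an annotated transcription start. RefSeq promoter windows of GRCh38.p14, from 250 bases before to 50 bases after a start, are shown in 3 sets, each 5′ to 3′ on the strand of the gene. In the first 6, capitals mark matches to the GC box GGGCGG, the NRF1 motif and the CTCF core motif, each on either strand. The first set holds starts with an NRF1 match. FOCAD encodes a focal adhesion protein and USP45 a deubiquitinase, and these starts lie 28.6 kb and 2.42 kb from the nearest gene end.
FOCAD (chr9:20684009-20684308, + strand): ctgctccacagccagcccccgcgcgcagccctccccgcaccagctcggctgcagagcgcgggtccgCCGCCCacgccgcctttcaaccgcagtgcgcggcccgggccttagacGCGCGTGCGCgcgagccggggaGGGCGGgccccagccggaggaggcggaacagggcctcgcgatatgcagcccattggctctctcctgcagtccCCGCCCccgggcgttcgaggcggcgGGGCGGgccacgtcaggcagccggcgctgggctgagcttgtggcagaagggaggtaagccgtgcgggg
USP45 (chr6:99515374-99515673, - strand): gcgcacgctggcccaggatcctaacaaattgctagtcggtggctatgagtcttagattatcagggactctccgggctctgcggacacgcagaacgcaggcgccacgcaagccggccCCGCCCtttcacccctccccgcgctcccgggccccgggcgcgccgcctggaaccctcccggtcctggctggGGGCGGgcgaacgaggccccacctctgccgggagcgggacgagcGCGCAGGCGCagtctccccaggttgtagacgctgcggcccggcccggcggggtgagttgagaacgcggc

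The second set holds starts with a CTCF core match, at CHIC2, a membrane-associated protein gene, and at DNAJB1, which encodes an HSP40 cochaperone.
CHIC2 (chr4:54064556-54064855, - strand): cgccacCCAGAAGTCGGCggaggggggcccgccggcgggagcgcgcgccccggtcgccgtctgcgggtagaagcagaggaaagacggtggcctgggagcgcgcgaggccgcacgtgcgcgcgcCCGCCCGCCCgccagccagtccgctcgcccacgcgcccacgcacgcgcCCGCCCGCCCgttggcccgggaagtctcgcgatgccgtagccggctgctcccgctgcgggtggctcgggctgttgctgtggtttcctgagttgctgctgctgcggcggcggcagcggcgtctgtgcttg
DNAJB1 (chr19:14529222-14529521, - strand): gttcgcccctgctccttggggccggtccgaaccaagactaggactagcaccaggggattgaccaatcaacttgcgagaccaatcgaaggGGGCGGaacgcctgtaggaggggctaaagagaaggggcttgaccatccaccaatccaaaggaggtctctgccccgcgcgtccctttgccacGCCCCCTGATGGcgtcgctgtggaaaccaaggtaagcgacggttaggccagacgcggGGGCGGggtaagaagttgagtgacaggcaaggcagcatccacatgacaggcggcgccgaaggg

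The third set holds the protein-coding start and the plainly named lncRNA start under the highest-ranked shared distal peaks. BBS12 is a chaperonin-like gene of Bardet-Biedl syndrome.
BBS12 (chr4:122732454-122732753, + strand): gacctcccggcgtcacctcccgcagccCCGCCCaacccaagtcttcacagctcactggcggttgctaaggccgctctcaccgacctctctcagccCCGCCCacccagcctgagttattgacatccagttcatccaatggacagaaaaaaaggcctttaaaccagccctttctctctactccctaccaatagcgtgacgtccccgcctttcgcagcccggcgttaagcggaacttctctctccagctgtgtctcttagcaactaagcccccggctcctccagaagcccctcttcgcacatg
LINC01003 (chr7:152463874-152464173, + strand): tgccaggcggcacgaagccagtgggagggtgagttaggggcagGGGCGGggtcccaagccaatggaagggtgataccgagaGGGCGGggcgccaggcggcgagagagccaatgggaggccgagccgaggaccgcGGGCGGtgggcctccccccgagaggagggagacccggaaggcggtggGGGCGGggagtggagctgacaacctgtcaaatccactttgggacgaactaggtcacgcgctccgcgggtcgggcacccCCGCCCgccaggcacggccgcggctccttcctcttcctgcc
The LGALS8 start lies under a distal peak found in J76 only and was picked for its match to the RUNX motif TGTGGTN. Its capitals mark only that match, which is on the opposite strand, and its GC box is not marked. RUNX matches in the windows above, such as the one in CHIC2, are not marked either, so the capitals do not contrast the windows. LGALS8 encodes a galectin.
LGALS8 (chr1:236523732-236524031, + strand): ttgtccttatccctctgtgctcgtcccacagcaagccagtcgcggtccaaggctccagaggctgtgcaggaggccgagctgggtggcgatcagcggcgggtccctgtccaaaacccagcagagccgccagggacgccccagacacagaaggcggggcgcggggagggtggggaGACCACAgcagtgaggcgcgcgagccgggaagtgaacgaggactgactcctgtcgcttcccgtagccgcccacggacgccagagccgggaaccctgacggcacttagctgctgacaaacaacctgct

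The starts under shared peaks were picked for the highest value of the lower of their peak's ranks in J76 and 293T. LGALS8 was picked for a high −log10 q in J76. The high values of these peaks thus follow from the choice and do not describe starts with these motifs. Ranks are percentiles of the authors' −log10 q within a list, with 100 the highest. The FOCAD peak had a fold enrichment over background, as the authors computed it, of 10.4 in J76 and 9.68 in 293T, with ranks of 99.4 and 99.0. The USP45 peak had folds of 9.18 in J76 and 7.23 in 293T. The CHIC2 peak had folds of 10.3 in J76 and 8.80 in 293T, and the DNAJB1 peak 11 in J76 and 13.3 in 293T. The LGALS8 peak had a fold of 9.15 and a rank of 85.2 in J76.

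Over all starts more than 1 kb from a protein-coding gene end, 2310 windows lay under a shared distal peak, of which 1458 (63.1%) lay wholly inside both lines' peaks. There were 522 under distal peaks of J76 only, 1024 under distal peaks of 293T only and 10475 under no peak. Windows under shared peaks were rich in CpG, with a median of 26 CpG dinucleotides against 8 under J76-only peaks, 8 under 293T-only peaks and 3 under no peak. The median GC content was 66.3% under shared peaks, 56.3% under J76-only, 54.0% under 293T-only and 47.0% under no peak. The GC box, a site for SP and KLF factors, was in 68.4% of windows under shared peaks (66.5 to 70.3), in 37.4% under J76-only peaks and in 33.9% under 293T-only peaks. It was in 45.0% of all 34961 windows of the table. The NRF1 motif, named for a regulator of mitochondrial and housekeeping genes, was in 7.71% under shared peaks (6.69 to 8.86), in 2.87% under J76-only and in 1.27% under 293T-only peaks, with 5.80% in all windows. The ETS core CCGGAAGT was in 3.94% under shared peaks (3.22 to 4.81), 2.68% under J76-only (1.60 to 4.45, which overlaps) and 0.879% under 293T-only peaks, with 4.14% in all windows. All windows include starts at gene ends. The 14747 windows away from gene ends held the GC box in 25.2%, the NRF1 motif in 1.80% and the ETS core in 1.31%. Under no peak the shares were 13.0%, 0.439% and 0.706% in the same order. The GC box and ETS letters were added after the planned motifs had been counted.

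The RUNX, AP-1 and TEAD motifs were less frequent under shared peaks than in all windows and in windows under no peak. RUNX factors act in T cell development, and their motif was in 9.65% of windows under shared peaks (8.52 to 10.9), in 25.1% under J76-only peaks (21.6 to 29.0) and in 16.5% under 293T-only peaks, with 17.8% under no peak and 13.0% in all windows. The AP-1 motif TGANTCA was in 5.24% under shared peaks, 9.58% under J76-only and 13.3% under 293T-only peaks, with 11.8% under no peak and 7.68% in all windows, which include starts at gene ends. The TEAD motif GGAATGN was in 10.8% under shared peaks (9.58 to 12.1), 13.4% under J76-only (10.8 to 16.6, which overlaps) and 18.3% under 293T-only peaks, with 19.0% under no peak and 14.0% in all windows. Under J76-only peaks TEAD was thus below the share under no peak, and RUNX was above it. AP-1 was also lower there, but its interval (7.34 to 12.4) includes the share under no peak. For CTCF the share was 4.81% under shared peaks (4.01 to 5.75) and 4.60% under J76-only peaks (3.11 to 6.75), and 3.12% under 293T-only peaks (2.22 to 4.38), with overlapping intervals. All windows held the CTCF core in 2.41%, windows away from gene ends in 2.28% and windows under no peak in 1.56%. Both strands were searched for every motif, windows of neighbouring starts can overlap, and the GC box and the NRF1 motif are themselves GC-rich. GC content differed between the same groups, and its part in these shares was not tested. Gene type differed too: protein-coding starts were 1427 of 2310 windows under shared peaks, 232 of 522 under J76-only peaks and 2534 of 10475 under no peak. Under shared peaks CTCF was in 3.50% of protein-coding and 6.91% of lncRNA starts, AP-1 in 3.92% and 7.36%, and the GC box in 74.0% and 59.3%. NRF1, RUNX and ETS differed less by type.

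Sharing was less frequent away from genes. Of the 42005 distal J76 peaks, 43.7% overlapped a 293T peak, the rate that defines these sites, against 88.8% of the 12142 J76 peaks at gene ends and 52.3% of all J76 peaks. From the other side, 28.1% of the 64924 distal 293T peaks overlapped a J76 peak. The shared sites overlapped 18329 distinct 293T peaks. A few were broken differently in the lines: 335 J76 peaks overlapped more than 1 293T peak, up to 4, and 367 of the 293T peaks covered more than 1 of the shared sites. At 199 sites the summit of the 293T peak fell within 1 kb of a gene end although the J76 summit did not.

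The rate rose with rank by −log10 q. In the lowest decile of the J76 list 13.2% of distal peaks were shared (12.3 to 14.2), against 42.5% of gene-end peaks (37.1 to 47.9). In decile 6 the shares were 55.2% of distal peaks and 70.4% of gene-end peaks. In decile 9 they were 72.0% and 97.3%, and in decile 10 they were 89.9% and 99.5%. Distal peaks were thus shared less often than gene-end peaks of the same rank in these deciles. Ranked by the authors' fold, the shares of distal peaks were 20.4% in decile 1, 19.2% in decile 2 and 80.1% in decile 10, so the rise did not hold between the lowest deciles. Presence in both lists was thus linked to rank, and the ranks of shared and line-only peaks are given as descriptions only.

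**Figure D1:**
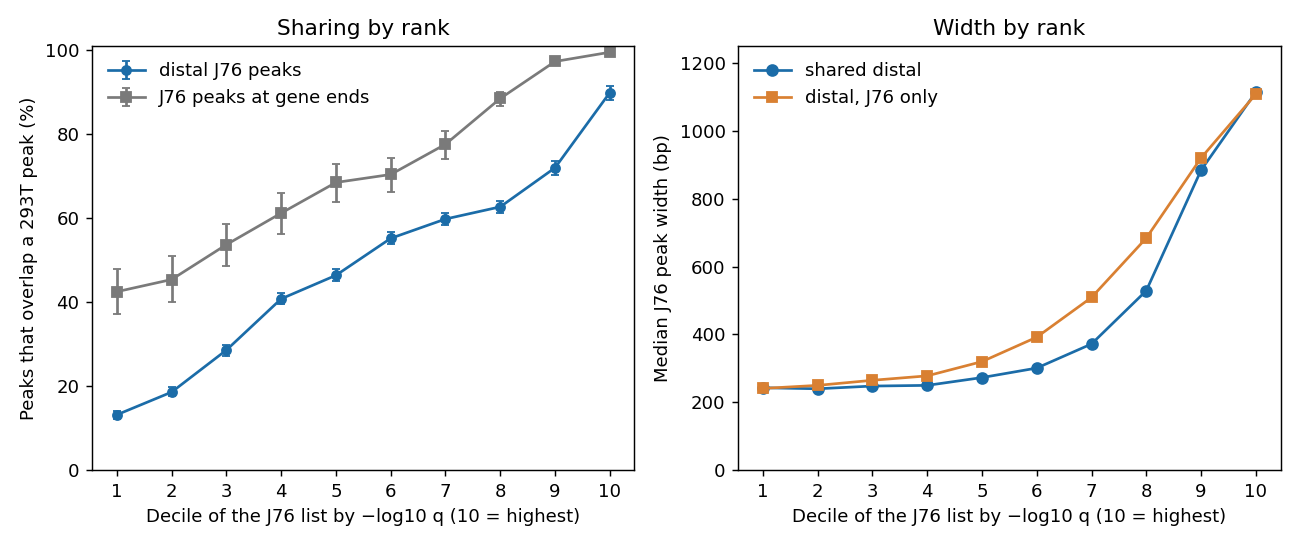
Left, percent of J76 peaks that overlap a 293T peak (vertical axis) by decile of −log10 q in the J76 list (horizontal axis), for distal peaks (circles) and gene-end peaks (squares), with 95% Wilson intervals; the distal line stays below the gene-end line, at 13.2% against 42.5% in decile 1 and 89.9% against 99.5% in decile 10. Right, median width in bp of shared distal and J76-only distal peaks by decile, which part most in decile 8, at 529 bp for shared and 684 bp for J76-only peaks.

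Shared distal sites were short. Their median width was 345 bp in J76 (interquartile range 263 to 598, longest 3078) and 461 bp in 293T (295 to 780, longest 3228). Distal peaks of J76 only had a median of 301 bp, those of 293T only 306 bp, and shared peaks at gene ends 1038 bp. Within deciles 2 to 9 the shared distal peaks were narrower than J76-only distal peaks, with 301 bp against 392 bp in decile 6 and 372 bp against 509 bp in decile 7. Ranked by fold instead, they were narrower in deciles 3 to 9, and the order in decile 2 turned, to a difference of 10 bp in favour of shared peaks. The 293T peak was the wider of the pair at 11764 sites (64.1%), the J76 peak at 6511, and 82 were equal. Among the 13894 sites (75.7%) where the peaks covered at least 50% of each other, 293T was wider at 61.2%.

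The summits of the 2 peaks at a site lay close together. Their median distance was 24 bp, 71.4% were within 50 bp of each other and 91.0% within 250 bp, and 679 sites had summits over 500 bp apart. Only 94 sites had an overlap of 50 bp or less, down to the minimum of 1 bp. On the other side of that limit, 76 distal J76-only peaks lay under 50 bp from a 293T peak. At the limit that separates distal sites from gene ends, the 196 shared peaks with a summit 1 to 1.10 kb away had a median width of 526 bp and a median J76 rank of 67.2. The 223 shared peaks just outside it, at 0.900 to 1 kb, had 513 bp and 65.4. At the far limit, the 109 sites at 450 to 500 kb had a median width of 307 bp and rank of 47.4, and the 102 shared peaks at 500 to 550 kb had 313 bp and 49.0.

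Strength in J76 and in 293T went together only in part. Across the 18357 sites the Spearman correlation of the ranks was 0.523 and the Pearson correlation 0.479, and that of the widths was 0.505 (Spearman). These are descriptions over peaks of 1 library each, and both lists come from 1 caller and share the sequence of each site. The median fold was 5.47 in J76 and 5.84 in 293T, and the median −log10 q 13.7 in J76 and 17.7 in 293T. The median rank was 57.5 in J76 and 69.8 in 293T, and 70.5% of the sites had the higher rank in 293T. The 293T list is longer, which raises the percentile of a given position: counted by position from the top of each list, the medians were 24971 in J76 and 25636 in 293T, and 43.5% of the sites stood nearer the top in 293T, so the direction turned with the measure.

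Sites at the top of both lists were few. Of the distal J76 peaks 2.79% were in the highest decile of the J76 list. Of the shared distal sites, 1052 were in the highest decile in J76, 1949 in 293T and 823 (4.48%) in both. A rank above 50 in both lists was found at 9606 sites (52.3%), and a rank below 50 in both at 2651 (14.4%). Opposite extremes were rarer: 28 sites were in the highest decile in J76 with a rank below 50 in 293T, and 190 were in the highest decile in 293T with a rank below 50 in J76.

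**Figure D2:**
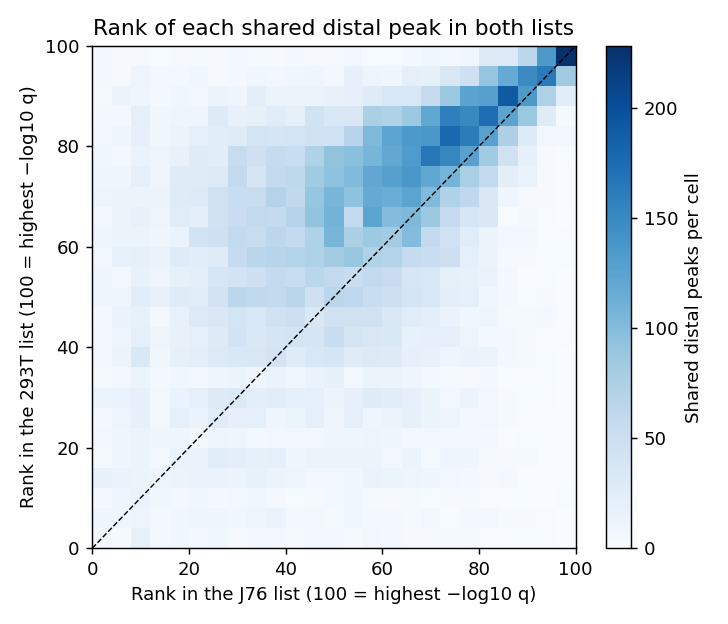
Rank of each of the 18357 shared distal sites in the J76 list (horizontal axis) and in the 293T list (vertical axis), both in percentiles with 100 the highest; colour gives the number of sites per cell, and the dashed line marks equal ranks. The densest cells lie at the upper right, where 823 sites are in the highest decile of both lists, and most sites lie above the line, as 70.5% have the higher rank in 293T.

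The 10 sites with the highest value of their lower rank lay between 2.02 kb and 402 kb from the nearest gene end. The highest, at position 1 in the J76 list and position 1 in the 293T list, lay 30.5 kb from LTBP1, a TGF-beta binding protein gene, at chr2:32916136-32916708, with a fold of 22.4 in J76 and 20.8 in 293T. Its widths were 573 bp and 575 bp, and its summits were 2 bp apart. Position 2 in both lists was a 391 bp peak at chr13:109424040-109424430, 216 kb from MYO16, with the highest fold of any shared distal site, 36.3 in J76 and 31.8 in 293T. Position 3 in both was at chr3:93470289-93470870, 402 kb from PROS1, with a fold of 21.3 in J76 and 21.7 in 293T. The same sites therefore headed both lists on chromosomes 1 to 22 and X. Peaks elsewhere were not ranked, and the sequence of these sites was not read here. Sites were selected only by chromosome, overlap and distance, so none was removed for excess signal. Whether these sites are regulatory elements was not tested.

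Several of these sites were the outermost peaks of their chromosome. The sites nearest to IL9R, an interleukin receptor gene 17.5 kb away (chrX:156029889-156030837, fold 14.9 in J76 and 17.1 in 293T), ANHX (chr12:133264856-133265382, 27.4 in J76 and 24.0 in 293T) and RABL2B (chr22:50807811-50808538, 16.2 in J76 and 19.3 in 293T) were each the last J76 peak on the chromosome. Of the 46 chromosome ends, 31 had a shared distal site as their outermost J76 peak, 15 of them at the first peak, and 18 of all sites started within 20 kb of position 1 of a chromosome. The other members of the 10 were near TPTE on chromosome 21, DEFB115 on chromosome 20, HNRNPD on chromosome 4 and AMPD3 on chromosome 11. Their folds lay between 11.9 and 14.3 in J76, and between 12 and 14.6 in 293T. Sequence next to chromosome ends and centromeres is rich in near-identical copies, and the sources used here do not say how reads that match several places were counted.

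The site near AMPD3 lies at MTRNR2L8, a copy of mitochondrial ribosomal RNA sequence in the nuclear genome. A further 18 shared distal sites had their summit within 1 kb of a mitochondrial pseudogene, of 466 in the gene table, against 4 distal peaks of J76 only and 2 of 293T only. The 6 at chr1:629090-634889 covered MTND1P23, MTND2P28, MTCO1P12, MTCO2P12, MTATP6P1 and MTCO3P12. Their folds were 2.31 to 3.04 in J76 and 2.36 to 3.33 in 293T, and their ranks 78.3 to 91.9 in J76 and 81.4 to 95.5 in 293T. The one on chromosome 5 at MTND6P3 and MTCYBP35 had a fold of 14.9 in J76 and 12.1 in 293T over 337 bp and 295 bp. Mitochondrial DNA is free of nucleosomes and is cut heavily in this assay. Whether reads from it were placed on these copies was not tested.

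A small number of sites differed strongly in rank between the lines. The site nearest to CSMD1 had a fold of 12.8 and a rank of 94.7 in J76, against 2.92 and 2.7 in 293T. The site 245 kb from B3GAT1, a glucuronyltransferase gene that makes the CD57 epitope, had a fold of 9.0 and a width of 1520 bp in J76, against 3.28 and 252 bp in 293T. The site 34.7 kb from CD47, a surface protein that protects cells from phagocytosis, lies at the start of the lncRNA LINC01215. It had a fold of 5.14 and a width of 1821 bp in J76, against 2.75 and 313 bp in 293T. The others of the 5 sites that leaned most to J76 were near ASMT and RBM26. In the opposite direction, a site inside RABGAP1L lies within 1 kb of an annotated start of that gene. It had a fold of 2.81 and a rank of 0.3 in J76, against 10.6 and 97.9 in 293T. The site 1.04 kb from HEBP1, a heme-binding protein gene, lies at an end of the transcribed pseudogene HTR7P1. It had a fold of 2.17 in J76 and 7.91 in 293T, with summits 870 bp apart. The sites near ADCY1, GOLIM4 and ANO5 had folds of 2.15 to 3.07 in J76 and 6.38 to 8.69 in 293T. The ADCY1 site lies at ends of the transcribed pseudogenes SEPTIN7P2 and GTF2IP13, and the GOLIM4 site at an end of EGFEM1P, also a transcribed pseudogene. In each of these 10 sites the weaker peak was narrow, between 206 bp and 466 bp.

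Sites were more often shared near genes. The median distance to a protein-coding gene end was 22559 bp for shared distal sites, 32670 bp for J76-only and 43442 bp for 293T-only distal peaks. At 1 to 5 kb from a gene end, 53.8% of distal J76 peaks (52.5 to 55.0) and 43.4% of distal 293T peaks were shared. At 100 to 500 kb the shares were 37.0% (36 to 38) and 19.4%. The decline was also seen within broad classes of J76 rank. In the highest decile the share was 95.2% (91.6 to 97.3) at 1 to 5 kb and 76.4% (68.2 to 83.1) at 100 to 500 kb. At ranks of 50 to 90 it was 68.8% and 54.4%, and below rank 50 it was 35.3% and 27.0%. These classes match rank only roughly, as the share below rank 50 ran from 13.2% in decile 1 to 46.4% in decile 5. The sites nearest to genes were also wider and higher, with a median of 422 bp and rank 63.6 in J76 at 1 to 5 kb, and 310 bp and rank 51.6 at 100 to 500 kb.

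**Figure D3:**
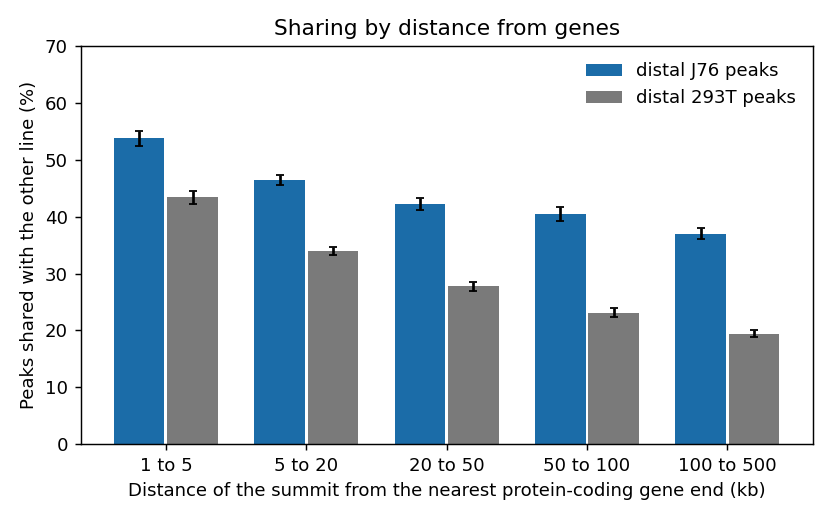
Percent of distal peaks shared with the other line (vertical axis, with 95% Wilson intervals) by distance of the summit from the nearest protein-coding gene end in kb (horizontal axis), for distal J76 peaks (left bar) and distal 293T peaks (right bar). Both fall with distance, to 37.0% of J76 peaks and 19.4% of 293T peaks at 100 to 500 kb.

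Chromosomes differed in how many distal peaks were shared. The highest shares of distal J76 peaks were on chromosome X (53.4%, 50.1 to 56.6), 19 (50.3%) and 1 (49.9%), and the lowest on 18 (34.7%, 31.9 to 37.7), 21 (37.7%) and 15 (38.2%). Counted over distal 293T peaks the order was different, with 55.3% on chromosome 19, 48.0% on 17 and 47.5% on 22, and 17.9% on 13 and 19.6% on X. Chromosome X was thus the highest on the J76 side and the second lowest on the 293T side, where it held 2406 distal peaks against 890 in J76. The gene-dense chromosome 19 had the closest sites, with a median spacing of 37120 bp, against 130212 bp on X and 123304 bp on 13.

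Many of the strongest sites lay at gene starts that a boundary at outer gene ends misses. A protein-coding start annotated by RefSeq lay within 1 kb of the summit at 1321 sites (7.20%, 6.83 to 7.58), against 1.37% of J76-only and 1.54% of 293T-only distal peaks, and 3.91% of all distal J76 peaks. Of the distal J76 peaks at such a start, 80.4% (78.4 to 82.2) were shared. These sites were broad and high, with medians of 945 bp and rank 82.9 in J76 and 1159 bp and rank 87.9 in 293T, and 24.8% of them were in the highest decile of both lists. The highest were at BBS12 (position 22 in J76 and 104 in 293T), RPS6KA2, a kinase of the MAPK pathway (9.08 in J76 and 8.34 in 293T), and C1GALT1, which builds the core of O-linked glycans (8.29 in J76 and 8.74 in 293T). RHBDD1, the pair ENKUR and THNSL1, PNPLA8, MSTO1 and TRIM36 followed, with ranks of at least 99.3 in both lines.

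Genes of other types lay within 1 kb of the summit at 13.7% of the sites (13.2 to 14.2), against 7.23% of J76-only and 5.77% of 293T-only distal peaks, and 10.1% of all distal J76 peaks. lncRNA ends accounted for 8.85% of the sites, 4.41% of J76-only and 3.90% of 293T-only peaks. The share of transcribed pseudogenes was 1.54%, 0.402% and 0.197% in the same order, while other pseudogenes differed little, at 1.98%, 1.94% and 1.21%. The highest sites of this kind were at VAMP9P and MTRNR2L8, at CETN4P beside BBS12, at the lncRNA ANKRD20A4-ANKRD20A20P, and at LINC01003 (fold 9.70 in J76 and 7.33 in 293T). They were followed by DANCR, a lncRNA that hosts MIR4449 and SNORA26 (10.3 in J76 and 9.29 in 293T), DUX4L26 and ABCA11P. ANKRD20, DUX4L and similar genes have near-identical copies, so the place of these peaks is uncertain.

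**Figure D4:**
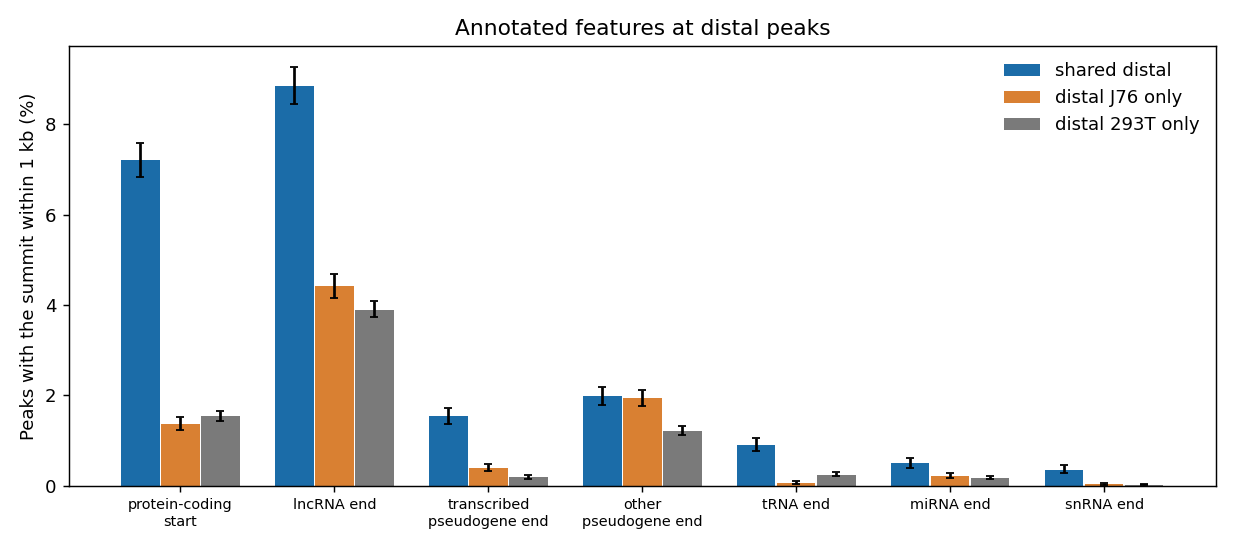
Percent of peaks with the summit within 1 kb of each annotated feature (vertical axis, with 95% Wilson intervals) for shared distal sites, distal J76-only peaks and distal 293T-only peaks, from left to right in each group of bars. Protein-coding starts stand at 7.20%, 1.37% and 1.54%, and tRNA ends at 0.904%, 0.0677% and 0.249%.

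Annotated features were most frequent at the shared sites of the highest ranks. In J76 deciles 1 to 7, between 10.3% and 14.4% of the shared distal sites lay at a protein-coding start or the end of another gene. In deciles 8, 9 and 10 the shares were 22%, 44.8% and 62.5%. J76-only distal peaks stood at 7.41% in decile 1, at 6.99% in decile 2 and at 10.9%, 13.6% and 11% in deciles 8, 9 and 10, the last over 118 peaks. The other 14768 sites (80.4%) lay at neither, and were weaker and shorter, with a median of 319 bp and rank 54.0 in J76 and 404 bp and rank 66.8 in 293T. Of them 1.76% were in the highest decile of both lists. Among all shared distal sites 45.8% lay inside a protein-coding gene, against 47.6% of J76-only and 52.8% of 293T-only distal peaks.

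Transfer RNA, small nuclear RNA and ribosomal RNA genes had the highest shares of the gene types counted. Of the 182 distal J76 peaks within 1 kb of a transfer RNA gene, 166 (91.2%, 86.2 to 94.5) were shared, as were 65 of 72 (90.3%, 81.3 to 95.2) at small nuclear RNA genes and 15 of 16 at ribosomal RNA genes. Of the 443 transfer RNA genes in the table, 206 (46.5%) had a shared distal site, 12 others had a J76-only distal peak and 81 a 293T-only distal peak, among them 2 with both. The tRNA sites had a median rank of 72.2 in J76 and 84.6 in 293T. By position in the list the median was 16316 in J76 and 13120 in 293T, and 95 of 166 stood nearer the top in 293T. The highest were near STX11 on chromosome 6 at TRL-TAA1-1 (fold 8.77 in J76 and 8.07 in 293T) and near PGBD2 on chromosome 1 at TRL-CAA4-1 and TRE-CTC2-1 (8.24 in J76 and 7.35 in 293T). TRD-GTC2-8 and TRT-AGT1-3 followed.

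The small nuclear RNA class of the table holds genes of spliceosome RNAs such as U1 and U2, and also the SNAR genes. Of 154 in the class, 62 (40.3%) had a shared distal site, which had a median width of 844 bp in J76 and 1347 bp in 293T and a median rank of 87.1 in J76 and 86.6 in 293T. The highest was LOC124904138, in an array that also holds the U2 gene RNU2-1, near CCDC200 (chr17:43251463-43252420, fold 7.22 in J76 and 8.08 in 293T), and 3 U1 genes on chromosome 1, RNU1-3, RNU1-4 and RNU1-2, followed with folds of 8.66 to 9.11 in J76 and 8.15 to 8.21 in 293T. U1 and U2 genes are repeated in near-identical copies, so the division of reads among them is uncertain.

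MicroRNA genes less often had such a site. Counted as for transfer RNA genes, 91 of 1911 miRNA genes (4.76%) had a shared distal site. By a different measure, 40 of 1558 hairpins in the RefSeq table (2.57%) lay under a shared distal site itself. Of 143 distal J76 peaks near a miRNA gene, 91 (63.6%) were shared. The highest of the 40 were MIR4449, in the DANCR site, and MIR4479 in TRAF2 (fold 12.4 in J76 and 12.1 in 293T). A pair of well-studied members, picked after their values were seen, are let-7i, a differentiation-linked miRNA, and miR-210, which hypoxia induces. Their mature sequences are printed to show which miRNAs these sites cover, with the seed, bases 2 to 8, in capitals.
hsa-let-7i-5p: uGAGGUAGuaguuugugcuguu
hsa-let-7i-3p: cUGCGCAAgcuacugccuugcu
hsa-miR-210-5p: aGCCCCUGcccaccgcacacug
hsa-miR-210-3p: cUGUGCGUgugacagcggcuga
These 4 seeds all differ, and a peak over a hairpin does not show that the miRNA was made.

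Shared distal sites were mostly spread out. Neighbouring sites lay a median of 71588 bp apart (10th percentile 6859 bp, 90th percentile 359995 bp), against 52060 bp between J76-only and 25714 bp between 293T-only distal peaks, and 86390 bp between shared gene-end peaks. Spacing follows the number of peaks in a class. The nearest J76 peak of any class was at a median of 11263 bp from a shared distal site and 11074 bp from a J76-only distal peak. Close sites were joined into chains, in which the widest gap was 12477 bp. In all, 5198 sites (28.3%) were in 2255 chains, against 35.4% of J76-only distal peaks in chains of their own.

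Several of the longest chains followed arrays of small RNA genes. The largest held 25 sites in 62.5 kb at chr4:49092062-49154522, next to the centromere and with CWH43 as the nearest gene. Its folds were 1.83 to 4.64 in J76 and 1.70 to 5.47 in 293T, and it held 32 J76 peaks and 23 293T peaks in all. The next, 21 sites at chr17:43232438-43334297, ran along an array of 13 annotated small nuclear RNA genes that includes RNU2-1. Its median fold was 4.36 in J76 and 4.14 in 293T. Chains of 13 sites at chr19:50092616-50148046 and of 11 sites at chr19:47904216-47957540 followed the SNAR genes, small noncoding RNAs that the table lists as small nuclear RNAs. Their median folds were 6.26 and 6.66 in J76, and 5.43 and 5.91 in 293T. A chain of 11 sites at chr1:228609129-228646176 followed the 17 5S ribosomal RNA genes, with low folds of 1.59 to 2.56 in J76 and 1.71 to 2.72 in 293T. The other 3 of the 8 largest were 11 sites nearest to KCNJ18 on chromosome 17 and 10 sites each nearest to CCNYL1B and LOC124903767 on chromosome 16, with no annotated gene inside. The largest J76-only chain held 11 peaks.

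The genes nearest to the most sites named the same places and a few others. CWH43 was nearest to 36 sites, DEFB115 to 19, and TPTE, CCDC200 and TRIM27 to 18 each. The 18 at TRIM27, a zinc finger gene at the edge of the major histocompatibility region, had a median width of 366 bp and rank of 65.0 in J76, against 864 bp and 84.2 in 293T. FRG2B, near the end of chromosome 10, had 17 sites with a median rank of 49.7 in J76 and 81.4 in 293T. PTPRC, which encodes the leukocyte phosphatase CD45, was the nearest gene of 42 distal J76 peaks, of which 15 were shared. Those had a median rank of 72.2 in J76 and 55.5 in 293T. In all 9134 genes were nearest to at least 1 site, 4611 to exactly 1, and 46 to at least 10. The others of the 12 with the most were DCUN1D4, PTPRN2, ZNF385D, KLF12 and RHOU, with 13 to 16 sites.

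The broadest and the most isolated sites were of other kinds. The widest by the smaller of its widths, 3078 bp in J76 and 3085 bp in 293T, lay 179 kb from SHCBP1 at chr16:46398548-46401625 near the centromere, with a fold of 2.81 in J76 and 2.89 in 293T. Another, 2798 bp in J76 and 2842 bp in 293T, lay 1.25 kb from the end of YWHAZ, a 14-3-3 protein gene, with folds of 4.64 and 4.59. The sites farthest from any other shared distal site were all short. They lay in DIAPH2 on X (3035701 bp to the next, 418 bp in J76 and 200 bp in 293T), near STS on X, and near LRFN5 on 14. Those farthest from a gene end were nearest to LOC124903401, CDH6 and NR2F2, at 499 to 500 kb. The CDH6 site was strong nonetheless, with a fold of 11 in J76 and 9.52 in 293T.

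Gene lists were used to ask near which genes distal sites were common to the lines. Over all 19970 protein-coding genes, 70.2% had a shared distal site within 50 kb of an end, and 46.6% of the distal J76 peaks there were shared. T cell genes were below this rate. Near 22 T cell surface genes 25 of 99 distal J76 peaks were shared (25.3%, 17.7 to 34.6), near 20 T cell receptor signalling genes 33 of 102 (32.4%, 24.1 to 41.9), and near 22 T lineage transcription factors 54 of 161 (33.5%, 26.7 to 41.1). Counted over distal 293T peaks near these genes the shares were 53.1%, 33.7% and 45.0%, against 33.4% near all genes. Of the surface genes 14 of 22 had a shared site, of the signalling genes 16 of 20, and of the transcription factors all 22.

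Named members show the mixture. PTPRC had 6 shared of 16 distal J76 peaks within 50 kb, the best at chr1:198681789-198682603 with a fold of 8.00 in J76 and 7.26 in 293T. CD247, the zeta chain of the receptor complex, had 5 of 8, and the kinase ZAP70 had 4 of 8. Among surface genes IL7R, the interleukin 7 receptor, had 3 of 12, CD2 had 3 of 6 and SPN had 4 of 8. Of the transcription factors LEF1, a Wnt effector in thymocytes, had 6 of 12, the chromatin organizer SATB1 had 4 of 9, and LMO1, a leukemia oncogene, had 5 of 6. The highest-ranked LMO1 site was 283 bp wide in J76 and 1582 bp in 293T.

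**Figure D5:**
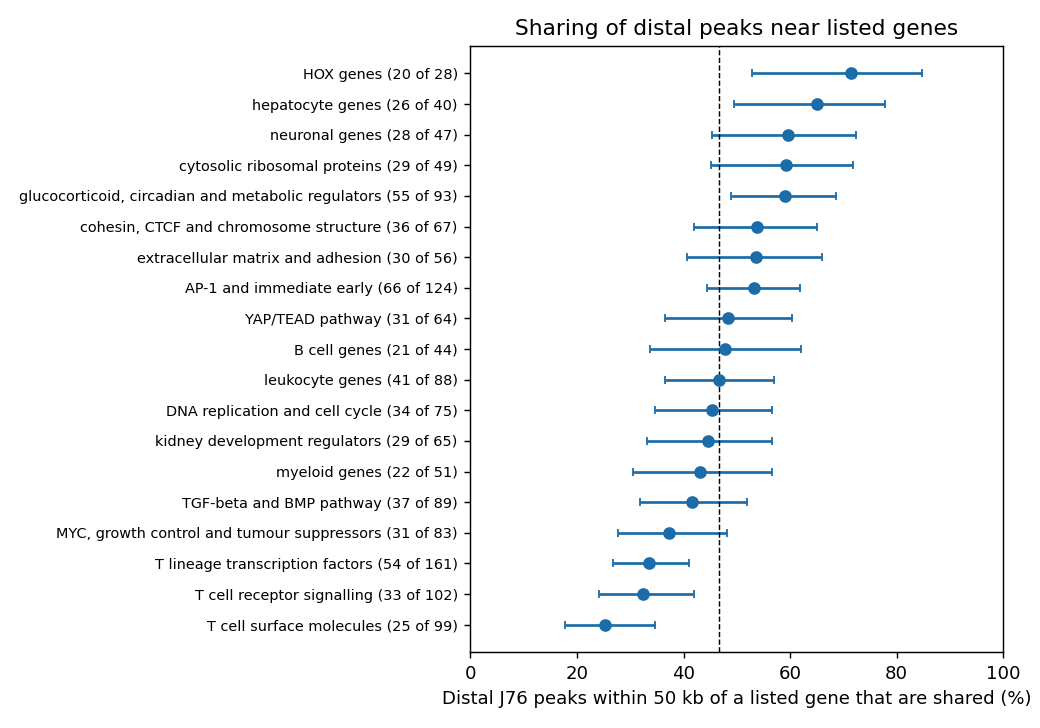
Percent of distal J76 peaks within 50 kb of the genes of each list that are shared with 293T (horizontal axis, points with 95% Wilson intervals; shared of all distal J76 peaks in parentheses), with the dashed line at 46.6% for all protein-coding genes. The 3 T cell lists lie lowest, at 25.3% to 33.5%, and HOX genes highest, at 71.4%.

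Within 50 kb the highest shares were near HOX genes, which set positional identity (20 of 28, 71.4%, 52.9 to 84.7), and hepatocyte genes (26 of 40, 65.0%, 49.5 to 77.9). Within 100 kb, where the rate of all genes was 45.4%, the order was different. HOX genes then stood at 53.8% (38.6 to 68.4) and hepatocyte genes at 55.7% (44.1 to 66.8), both with the rate of all genes inside the interval. Neuronal genes stood at 59.3% (48.7 to 69.1) and ribosomal protein genes at 58.0% (47.5 to 67.7), above it. Counted over distal 293T peaks within 50 kb, 30.2% of 63 near HOX genes and 63.4% of 41 near hepatocyte genes were shared. Near all genes 33.4% were, so the HOX share was high over J76 peaks only. The HOX value over J76 peaks rests on few peaks in 4 clusters. HOXC4, HOXC5 and HOXC6 shared 5 of 5 peaks, the highest with a fold of 11.7 in J76 and 6.06 in 293T. Among hepatocyte genes, which neither line is known to use, FGA and FGB share their highest-ranked site (fold 8.12 in J76 and 7.65 in 293T), and APOA2 had 4 of 5. Regulators of the glucocorticoid response, the circadian clock and metabolism had 55 of 93 within 50 kb (59.1%, 49.0 to 68.6). Within 100 kb they stood at 57.1% (49.1 to 64.9), and both intervals lay above the rate of all genes. The clock gene PER1 had 9 of 11 and DBP 8 of 8, and TSC22D3, a glucocorticoid target, had 7 of 9.

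The other lists had intervals that included the rate of all genes within 50 kb. Immediate early genes had 66 of 124 (53.2%, 44.5 to 61.8), with ATF3 at 9 of 11, NR4A1 at 7 of 15 and JUNB at 7 of 11. Ribosomal protein genes stood at 59.2%, with RPL18 at 7 of 7, a site it shares with the neighbouring DBP, and neuronal genes at 59.6%, with GRIN1 at 5 of 8. Cohesin and CTCF genes stood at 53.7%, with CTCF at 5 of 5 and YY1 at 5 of 8, the best YY1 site having a fold of 12.6 in J76 and 13.7 in 293T. Matrix genes had 53.6%, with COL1A1 at 5 of 7, and YAP/TEAD genes 48.4%, with TEAD2 at 4 of 5. Counted over distal 293T peaks, these lists stood lower, at 28.4% of 109 and 22.7% of 141, against 33.4% near all genes. The other lists of this paragraph lay above 33.4% on that side. B cell genes had 47.7%, with PAX5 at 3 of 8, leukocyte genes 46.6%, with LAPTM5 and VAV1 at 5 of 7 each, and replication genes 45.3%, with PCNA at 3 of 3. Kidney regulators had 44.6%, with PAX2 at 5 of 6 and PAX8 at 5 of 10, and myeloid genes 43.1%, with ELANE at 4 of 8. TGF-beta genes had 41.6%, with TGFBR1 at 3 of 10, and growth control genes 37.3%, with CDK6 at 3 of 13. The genes named here have the most sites of their list, and most have other genes within 50 kb, so a site is not assigned to 1 gene.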

How the data were processed

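An ATAC-seq library of each line was used, with its peak list. Per the submitters' processing notes the tools included Bowtie2 and MACS2. The sources used here give no versions or settings and do not mention duplicates or cut-site shifts. The deposited narrowPeak lists hold the authors' fold enrichment at the summit, a linear ratio, their p-value and q-value as −log10, and an integer score that the authors derived from the −log10 q. The summit column gives its distance from the peak start. Fold and −log10 q served to describe and rank peaks within a list. No build is stated in the sources used here; contig names in the lists are those of GRCh38, and genes, promoter windows and miRNAs came from RefSeq tables of GRCh38.p14. Positions count from 1.

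Overlaps, distances, ranks and motif matches were computed in Python 3.11.15 with pandas 2.3.3, numpy 2.4.6 and scipy 1.17.1, after the overlap and distance steps had been tested on simulated data. A site was paired with the 293T peak it overlaps most. No test between lines was possible with 1 library per line. The sites, the 19 gene lists and the markers were chosen with earlier results of these data known. Sites and genes were named by rule: the 10 with the highest lower rank, the 5 with the largest rank difference in each direction, the 3 widest, the 3 farthest from a gene end and from another site, the 8 largest chains, the 12 genes nearest to most sites, 8 genes of another type, and up to 3 genes per list. Protein-coding starts, tRNA and small nuclear RNA genes were named by the same lower rank, a rule set after the data were seen. No genome sequence was used, so motifs were counted in promoter windows and not at summits. Peaks on chromosome Y or on unplaced contigs were not analysed further. Alternatives were a reciprocal overlap of 50%, summits within 250 bp, a minimum −log10 q of 5 or 10, the 20000 highest peaks of each list, distal from 2.5 kb, genes of every type, a 500 bp window, and 100 kb for lists. Some genes that these rules name are not reported.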

Additional observations from a re-analysis of the deposited data

Results flagged for a closer look

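Peaks outside chromosomes 1 to 22 and X did not enter any comparison, yet many were called in both lines. On unplaced contigs 379 of 674 J76 peaks overlapped a 293T peak (56.2%, 52.5 to 59.9). On chromosome Y 98 of 227 J76 peaks overlapped a 293T peak (43.2%, 36.9 to 49.7). For comparison, 52.3% of all J76 peaks on chromosomes 1 to 22 and X and 43.7% of the distal ones overlapped a 293T peak. The peaks left aside are listed only because they were not analysed, and whether their sequence is repeated elsewhere was not tested. The lists give no reads, so neither count could be checked against them.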

How the results depend on the processing

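The number of sites, 18357, came to 13894 with a reciprocal overlap of 50%, 16802 with summits within 250 bp, 15715 at a −log10 q of at least 5, 16660 with distal set at 2.5 kb and 16575 with genes of every type. It fell to 9682 at a −log10 q of at least 10 and to 4373 with the 20000 highest peaks of each list, since fewer peaks enter. The share of distal J76 peaks, 43.7%, was 33.1% with the reciprocal overlap, 40% with summits, 49.2% and 51.0% at a −log10 q of 5 and 10, 44.2% with the 20000 highest, 42.8% with 2.5 kb and 41.6% with genes of every type. Sites at another gene type, 13.7%, were 13.1% with summits, 14.4% and 18.0% at a −log10 q of 5 and 10, 26.3% with the 20000 highest and 10.2% within 500 bp. The median spacing, 71588 bp, was 96506 bp with the reciprocal overlap, 80811 bp with summits, 82374 bp and 125442 bp at a −log10 q of 5 and 10, 262780 bp with the 20000 highest, 81663 bp with 2.5 kb, 88294 bp with genes of every type and 22449 bp over all J76 peaks; it rises as sites are removed. Without chains of 5 or more, an alternative chosen after seeing the data, it was 74466 bp. Also chosen then, ranking by position gave 43.5% of sites higher in 293T in place of 70.5%, and ranking by fold turned the width difference in decile 2 to 10 bp in place of -10 bp. The planned ranking by fold gave 20.4% in place of 13.2% shared in decile 1 and 80.1% in place of 89.9% in decile 10. All 19 gene lists stayed within their intervals at 100 kb, although the order of the highest ones changed. Read depth is unknown, so sites called in only 1 line may be missed in the other. No paired analysis was possible because each line has 1 library and the labels carry no replicate numbers.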
